A study of Mus musculus with 2 samples.

Results

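The barcodes described here were cardiomyocyte barcodes rich in mitochondrial RNA, chosen by 3 limits on their unique molecular identifiers (UMIs, each standing for 1 captured RNA molecule). At least 3% of a barcode's UMIs had to come from the 6 cardiomyocyte genes Ttn, Myh6, Ryr2, Tnnt2, Ctnna3 and Trdn, between 5% and 20% from the genes of the mitochondrial genome (mt- genes), and under 1% from the atrial genes Sln, Myl4, Myl7 and Nppa. These limits selected 365 of 10197 barcodes in the library labelled control and 329 of 7967 in that of the PD-1 inhibitor, 694 of 18164 in all. They were compared with low-mt cardiomyocyte barcodes, which met the same limits on the cardiomyocyte and atrial genes but held under 2% mt- UMIs (712 in control and 485 in PD-1 inhibitor). Since the limits were set on measured values of these barcodes, every difference between the mitochondria-rich and the low-mt barcodes is given as a description, with no test.

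Single-nucleus RNA sequencing was performed on hearts of male C57BL/6 mice that were 8 weeks old when dosing began. The PD-1 inhibitor group was given the InVivoPlus anti-mouse PD-1 antibody into the peritoneum at 5 mg/kg on days 1 and 14 of a 28-day cycle, and the control group was given PBS on the same days. Each group was 1 library, and the number of hearts in each was not given in the sources used here. The labels name no engineered allele in either group and no difference between them other than the antibody, and the effect of the antibody and a difference between single libraries cannot be told apart.

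Cardiomyocytes are the contracting cells of the heart, and their cytoplasm is packed with sarcomeres and with mitochondria that make most of the ATP for contraction. Most proteins of the respiratory chain are encoded in the nucleus, translated in the cytoplasm and imported, whereas mt- genes are transcribed inside the mitochondrion. Spliced mRNAs of energy and contractile genes are therefore abundant in the cytoplasm, while long unspliced transcripts and RNAs such as Malat1 stay in the nucleus.

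The libraries held 13177525 UMIs in control and 10875248 in PD-1 inhibitor, with a median of 1020 and 1066 UMIs per barcode and a minimum of 500. Over all barcodes mt- genes took 2.10% and 2.22% of UMIs. The mitochondria-rich barcodes held 538714 and 553176 UMIs, of which 482735 and 499753 were not from mt- genes. Because mt- genes were part of the selection, levels below are percentages or counts per 1000000 (CPM) of UMIs that are not from mt- genes, summed over the barcodes of a set. Of the 48 barcode sequences found in both libraries, 2 were mitochondria-rich in each. Scrublet called 10 mitochondria-rich barcodes of control (2.74%) and 5 of PD-1 inhibitor (1.52%) doublets, against 5.74% and 4.23% of all barcodes.

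The mitochondria-rich barcodes made up 3.58% of control barcodes (95% exact Clopper-Pearson interval 3.23 to 3.96) and 4.13% of PD-1 inhibitor barcodes (3.70 to 4.59). The ratio of these shares was 1.15 (0.991 to 1.34). Of the barcodes that met the limits on cardiomyocyte and atrial genes, 31.2% (28.5 to 33.9) were mitochondria-rich in control and 36.9% (33.7 to 40.2) in PD-1 inhibitor, a ratio of 1.18 (1.02 to 1.38). These intervals, like all others given here, cover counting error only, so they do not include the spread between hearts. A further 80 and 74 cardiomyocyte barcodes lay between 2% and 5% mt- UMIs, and 14 and 3 lay above 20%. The median mitochondria-rich barcode held 1190 UMIs of 626 genes in control and 1258 UMIs of 643 genes in PD-1 inhibitor, fewer than the 1694 and 1591 UMIs of the median low-mt barcode. The median share of the 6 cardiomyocyte genes was close in both sets, 5.18% against 4.84% in control and 4.77% against 5.12% in PD-1 inhibitor, and the median mt- share was 9.36% against 0.337% and 8.52% against 0.654%.

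Malat1, a long noncoding RNA that stays in the nucleus, went against calling these barcodes nuclei. It took a median of 0.659% of non-mt UMIs in the mitochondria-rich barcodes of control and 0.466% in those of PD-1 inhibitor, against 10.7% and 12.2% in low-mt cardiomyocyte barcodes. In control 235 of 365 mitochondria-rich barcodes (64.4%) held under 1% Malat1, and in PD-1 inhibitor 249 of 329 (75.7%). Only 1 of 712 and 0 of 485 low-mt cardiomyocyte barcodes did, and among low-mt barcodes with under 0.5% of UMIs from the 6 cardiomyocyte genes 26 of 6371 (0.408%) and 17 of 4795 (0.355%) did. Of the barcodes with 5% to 20% mt- UMIs but under 0.5% from the cardiomyocyte genes, 11 of 139 (7.91%) and 6 of 75 (8%) did. The spread among the mitochondria-rich barcodes was wide, with a 10th to 90th percentile of 0.178% to 2.89% in control and 0.141% to 2.01% in PD-1 inhibitor, single barcodes at up to 9.54% and 15.9%, and 10 and 7 barcodes with no Malat1 UMI. They are therefore called mitochondria-rich barcodes here, and whether each held a nucleus was not tested.

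**Figure D1:**
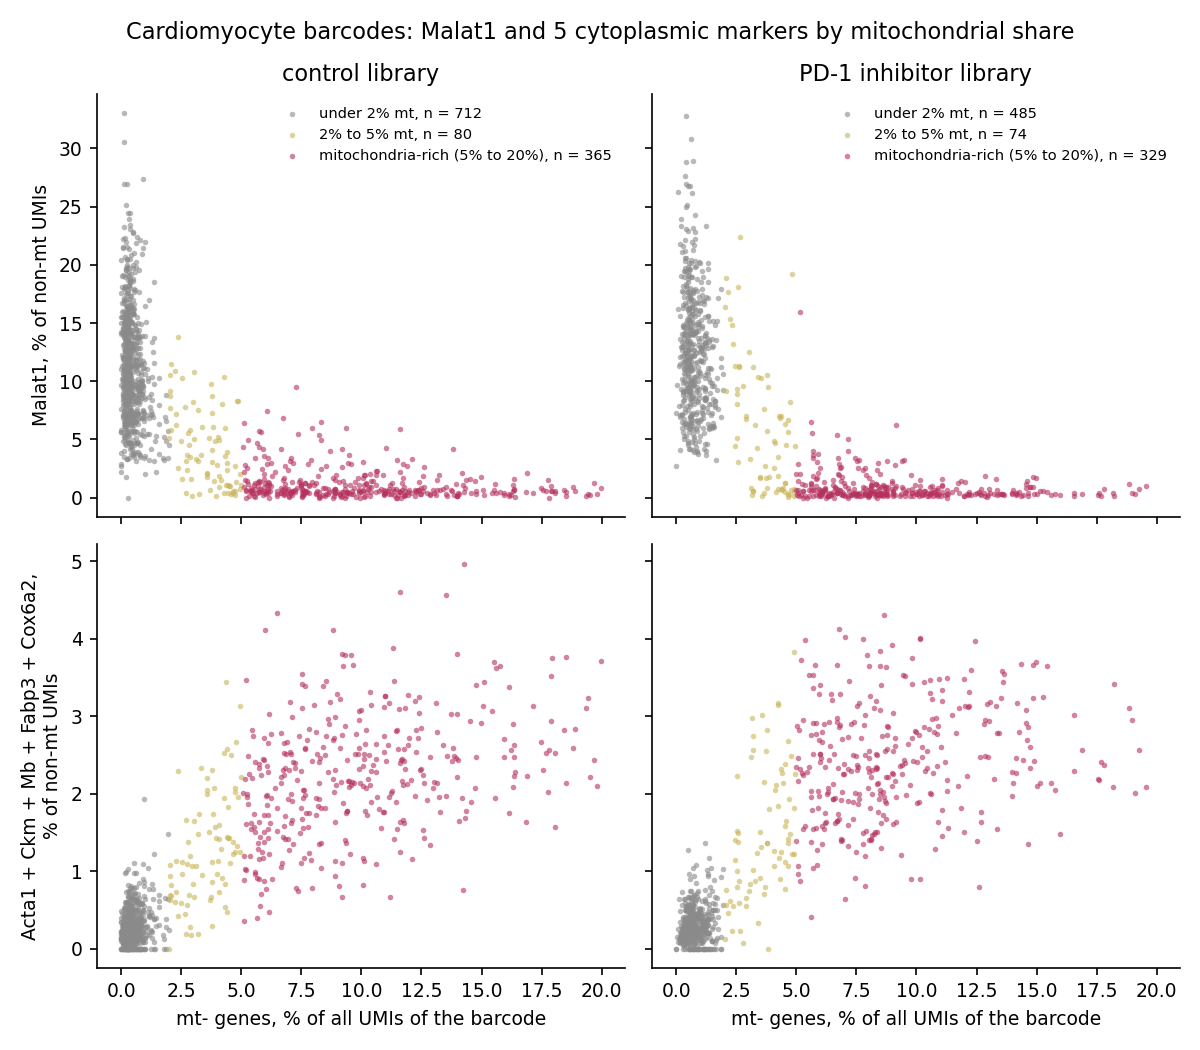
Share of Malat1 (top) and of the 5 markers Acta1, Ckm, Mb, Fabp3 and Cox6a2 (bottom) in percent of non-mt UMIs against the share of mt- genes in percent of all UMIs, for cardiomyocyte barcodes of the control (left) and PD-1 inhibitor (right) libraries. Each point is 1 barcode, coloured by mt- share (under 2%, 2% to 5%, 5% to 20%): the median Malat1 share was 10.7% and 12.2% under 2% mt- and 0.659% and 0.466% at 5% to 20%, and the median marker share 0.226% and 0.260% against 2.23% and 2.37%.

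The 5 genes taken as marks of cytoplasmic RNA were higher in the mitochondria-rich barcodes of both libraries, with log2 differences between 2.71 and 3.68. Together they took a median of 2.23% of non-mt UMIs in control and 2.37% in PD-1 inhibitor, against 0.226% and 0.260% in low-mt cardiomyocyte barcodes and 0.0546% and 0.0857% in low-mt barcodes of other cells. Mb, which encodes the oxygen store myoglobin, was at 10043 CPM against 872 in control and 10009 against 1069 in PD-1 inhibitor, log2 differences of 3.52 (3.44 to 3.61) and 3.23. Fabp3, the heart's carrier of fatty acids, was at 5661 against 866 CPM and at 6573 against 820. Ckm, the creatine kinase of the sarcomere, was at 2577 against 332 and at 2851 against 373. The muscle form of a cytochrome c oxidase subunit, Cox6a2, was at 4058 against 317 and at 4424 against 535. Acta1, the skeletal form of alpha-actin that the heart also expresses, was at 363 against 55.1 and at 332 against 35.6, so the 5 genes differed in the same direction in both libraries.

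Mb was detected in nearly every mitochondria-rich barcode, Acta1 in few. At least 1 Mb UMI was found in 100% and 99.7% of them, against 67.8% and 72.8% of low-mt cardiomyocyte barcodes and 30.7% and 35.5% of low-mt barcodes of other cells, whose median depths were 1008 and 1072 UMIs. Cut to 500 UMIs per barcode, which left out no barcode, these shares were 96.7% and 97.0%, 33.1% and 39.8%, and 17.4% and 19.2%. Acta1 was detected in 17.0% and 17.9% of mitochondria-rich barcodes, 7.16% and 5.15% of low-mt cardiomyocyte barcodes and 1.55% and 1.90% of the others. Its UMIs were uneven: the 37 control barcodes with the most held 85.7% of them, and the 33 of PD-1 inhibitor 83.1%, whereas the same number of barcodes held 26.6% and 27.9% of Mb UMIs. Myh7, the slow myosin heavy chain, had UMIs in 51 and 34 mitochondria-rich barcodes.

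Near the mt- limit the Malat1 share differed more than the marker share. Barcodes just below the mt- limit (4% to 5%, 31 in control and 30 in PD-1 inhibitor) held 1.56% and 1.76% of the 5 markers and 4.05% and 5.06% of Malat1, as shares of the UMIs summed over these barcodes. Those just above it (5% to 6%, 49 and 47) had 1.62% and 2.21% of the markers and 2.00% and 1.80% of Malat1. Barcodes of 5% to 20% mt- UMIs just under the limit on cardiomyocyte genes (2.5% to 3%, 50 and 66) had 2.38% and 2.54% of the markers, and those just over it (3% to 3.5%, 53 and 41) had 2.09% and 2.42%. In all, 178 and 189 barcodes of 5% to 20% mt- UMIs held between 0.5% and 3% of the cardiomyocyte genes, those at 2.5% to 3% included. Of these 178 and 189 barcodes, 24.7% and 21.7% were called doublets.

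Nuclear-encoded genes of the respiratory chain were higher nearly throughout. Over all genes with at least 50 UMIs in both sets together, 1370 of 6561 (20.9%) were more than 2-fold higher in the mitochondria-rich barcodes of control and 1871 (28.5%) more than 2-fold lower. In PD-1 inhibitor these were 1163 (21.8%) and 1677 (31.4%) of 5341. Of the genes compared in both libraries, 964 of 5241 (18.4%) were over 2-fold higher in both, 1231 (23.5%) over 2-fold lower in both, and 0 over 2-fold in opposite directions. When the ratios were centred on their median over all genes compared (-0.27 in control and -0.30 in PD-1 inhibitor on the log2 scale), 1694 genes were higher and 1413 lower in control, and 1463 and 1280 in PD-1 inhibitor. Against this background, 78 of 81 respiratory chain genes were over 2-fold higher in control and 77 of 80 in PD-1 inhibitor. Their summed level was 9.56% of non-mt UMIs against 1.36% in control (log2 difference 2.82, 2.79 to 2.84) and 10.5% against 1.73% in PD-1 inhibitor (2.60, 2.58 to 2.63). All 365 and 329 mitochondria-rich barcodes lay above the median share of the low-mt barcodes.

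Genes of all 5 complexes were higher. Complex I, which oxidises NADH, had 36 of 37 genes over 2-fold higher in each library, with summed log2 differences of 2.85 and 2.64. Its Ndufa4, now usually assigned to complex IV, was at 4707 CPM against 322 in control and at 5030 against 474 in PD-1 inhibitor. The accessory subunit Ndufs6 was at 1400 against 76.6 and at 1443 against 127 (log2 4.19 and 3.5), and Ndufs4, another accessory subunit, was the exception in both libraries at 460 against 260 and 450 against 227 (0.82 and 0.99). Complex II, succinate dehydrogenase, had all 4 genes over 2-fold higher but the smallest summed differences, 1.92 and 1.89. Its iron-sulfur subunit Sdhb was at 1525 against 247 and at 1765 against 296.

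Complex III, which passes electrons to cytochrome c, had all 10 genes over 2-fold higher (2.91 and 2.56), such as Uqcr11 at 1914 against 139 CPM and 2159 against 207. Complex IV, cytochrome c oxidase, had 13 of 13 and 12 of 13 genes over 2-fold higher (2.93 and 2.63). Complex V, the ATP synthase, had 15 of 17 and 15 of 16 (2.80 and 2.68). The catalytic beta subunit Atp5b was at 4655 against 538 and at 5060 against 656. Atp5g2, 1 of the genes for the ring subunit c, was lower at 6.21 against 31.7 CPM in control (log2 -2.14) and at 10 against 28.5 in PD-1 inhibitor (-1.40), while Atp5g1 and Atp5g3, which encode the same protein, were higher by 3.21 and 2.81 in control and by 3.09 and 2.76 in PD-1 inhibitor. Atp5l was close to equal (178 against 144, 192 against 162). Ndufa13 and Cox4i1 had no UMI in either set of either library, so these counts give no comparison, and the cause was not tested.

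**Figure D2:**
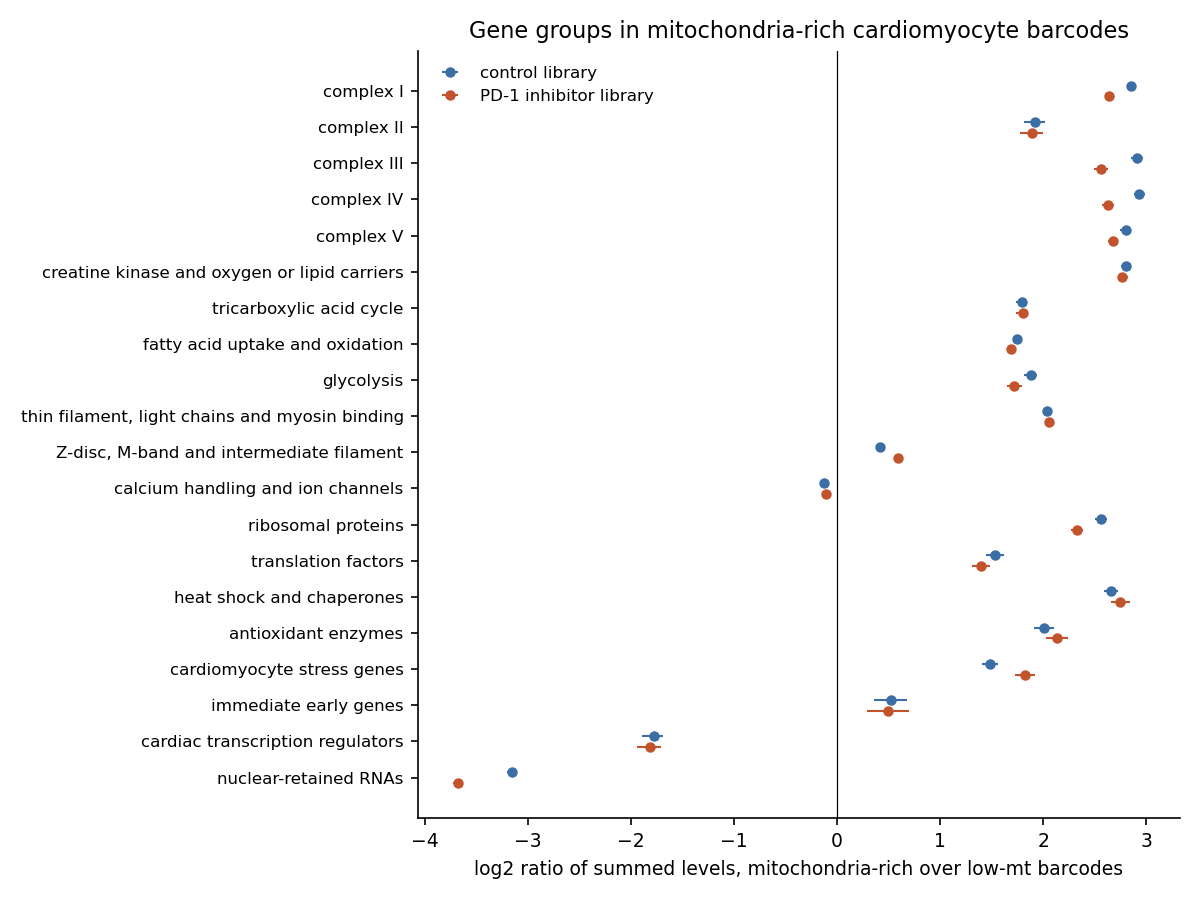
Log2 difference of the summed level of 20 gene lists, mitochondria-rich over low-mt cardiomyocyte barcodes, in control and PD-1 inhibitor; points are the ratio of summed UMIs per non-mt UMI, bars are 95% exact intervals of counting error, and the line at 0 marks equal levels. Complexes I to V of the respiratory chain stand at 2.85, 1.92, 2.91, 2.93 and 2.80 in control. In PD-1 inhibitor they stand at 2.64, 1.89, 2.56, 2.63 and 2.68. Nuclear-retained RNAs stand at -3.16 and -3.68, and calcium handling genes near 0 (-0.13 and -0.11).

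Of the 13 mt- genes, 8 carried the mitochondrial share. In mitochondria-rich barcodes mt-Cytb took 27.2% of mt- UMIs in control and 27.9% in PD-1 inhibitor, mt-Co1 20.1% and 19.3%, mt-Nd1 17.9% and 16.9%, and mt-Nd4 14.5% and 14.1%. In low-mt cardiomyocyte barcodes mt-Cytb took less, 23.3% and 22.6%, and mt-Nd1 more, 22.4% and 20.5%. In contrast, mt-Co2, mt-Atp8, mt-Atp6, mt-Co3 and mt-Nd4l each had at most 5 UMIs in mitochondria-rich barcodes of either library, although mt-Co2 and mt-Co3 encode subunits of the same enzyme as mt-Co1. The cause was not tested, and the mt- share used for the selection rests on the other 8 genes.

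Genes that feed the respiratory chain were higher as well, with less uniformity. All 8 genes of carriers and kinases for energy, oxygen and lipid that were compared in control, and all 7 in PD-1 inhibitor, were over 2-fold higher, at 3.18% against 0.457% and 3.54% against 0.519% of non-mt UMIs. Slc25a4, the ADP/ATP exchanger of the inner membrane, was at 8557 against 1007 CPM and at 10729 against 1241. In the tricarboxylic acid cycle 13 and 14 of 17 genes were over 2-fold higher (summed log2 1.79 and 1.80), such as Mdh2, malate dehydrogenase, at 1802 against 199 and 2099 against 244. The E1 subunit of 2-oxoglutarate dehydrogenase, Ogdh, was not, at 1226 against 940 and 1175 against 880. For fatty acid uptake and oxidation 16 and 17 of 20 genes were over 2-fold higher (1.75 and 1.69). Ech1, an enzyme of beta-oxidation, differed by 3.37 and 3.18, whereas the fatty acid receptor Cd36 differed by 0.54 and 0.67 and the transporter Slc27a1 was lower, at 137 against 519 CPM and 112 against 662. In glycolysis 9 and 8 of 12 genes were over 2-fold higher (1.88 and 1.72), including the muscle phosphoglycerate mutase Pgam2 at 1011 against 82.3 and 1099 against 155. Hk2, hexokinase 2, was at 309 against 251 and 374 against 259.

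The proportion of muscle or heart forms to other forms of the same protein was compared in 9 gene pairs. Cox6a2 made up 92.3% (91.1 to 93.4) of Cox6a2 and Cox6a1 UMIs in mitochondria-rich barcodes of control and 94.2% (93.1 to 95.1) in those of PD-1 inhibitor, above the 68.0% and 76.7% in low-mt cardiomyocyte barcodes and the 51.1% and 52.5% in low-mt barcodes of other cells. The muscle subunit Cox8b took 88.1% and 89.8% of its pair with Cox8a, against 68.1% and 79.1% in low-mt cardiomyocyte barcodes. For Eno3, muscle enolase, the values were 94.1% and 95.3% against 84.3% and 85.0%. Those of Slc25a4 with Slc25a5 were 92.8% and 93.7% against 88.7% and 83.4%. Those of Pgam2 with Pgam1 were 99.4% and 99.3% against 92.9% and 95.6%. Ckm made up over 95% of its pair with Ckb in both sets of cardiomyocyte barcodes. The proportions of Cox7a1 (63.2% and 64.3% against 63.9% and 65.3%) and Eef1a2 (74.4% and 75.4% against 76.8% and 74.3%) were close in both sets. The mitochondria-rich barcodes therefore did not lean to the muscle form in every pair. For Ldhb, the heart form of lactate dehydrogenase, the proportion was close too (79.9% and 82.4% against 81.8% and 83.2%). Eef1a2, the translation elongation factor of muscle and neurons, took 8.09% and 6.95% of its pair in other cells.

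Sarcomere genes were higher in the thin filament list and mixed in the Z-disc list. Genes of the thin filament, light chains and myosin binding took 5.17% against 1.26% of non-mt UMIs in control and 5.96% against 1.43% in PD-1 inhibitor (2.04 and 2.06), and 7 of 8 were over 2-fold higher. Tpm1, alpha-tropomyosin, was at 12949 CPM against 2233 and at 16352 against 2554. Actc1, cardiac alpha-actin, was at 12541 against 2494 and at 12424 against 2262. The exception was Mybpc3, cardiac myosin binding protein C, at 2045 against 1490 and 2165 against 1865. Z-disc, M-band and intermediate filament genes were mixed, with 5 and 6 of 13 over 2-fold higher and summed differences of 0.42 and 0.59. Xirp2, an actin-binding repeat protein of the intercalated disc, was at 2181 against 324 and 1689 against 334, and desmin (Des) differed by 2.43 and 2.46. The M-band gene Myom1 was at 1373 against 1888 and 1497 against 1927. Actn2, the alpha-actinin of the Z-disc, was at 2090 against 1832 in control and 2153 against 1028 in PD-1 inhibitor, the difference between libraries lying in the low-mt barcodes.

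Calcium handling and ion channel genes were close to equal as a sum and far apart as single genes. Their sum was 2.5% against 2.73% of non-mt UMIs in control and 2.28% against 2.45% in PD-1 inhibitor, log2 differences of -0.13 (-0.16 to -0.10) and -0.11 (-0.14 to -0.07), whose sign turned to 0.14 and 0.20 when ratios were centred on their median. Of 19 genes, 3 were over 2-fold higher and 10 lower in control, and 2 were higher and 9 lower in PD-1 inhibitor. Over all genes compared, 20.9% were over 2-fold higher and 28.5% lower in control, and 21.8% and 31.4% in PD-1 inhibitor. Hrc, a calcium-binding protein of the sarcoplasmic reticulum, was over 2-fold higher in both at 1591 CPM against 265 and 1465 against 396, as was S100a1, a calcium sensor of that compartment (2.85 and 2.71). The calcium pump of the same compartment, Atp2a2, was at 10364 against 5360 and 9269 against 5329, and its inhibitor Pln at 6542 against 4635 and 6615 against 5764, both under 2-fold. The 10 lower genes of control were 8 channel subunits, the exchanger Slc8a1 and the kinase Camk2d. Slc8a1, the sodium-calcium exchanger, was at 740 against 4806 and 428 against 3062. Cacna1c, the pore of the L-type calcium channel, was at 373 against 3755 and 288 against 2834. Kcnd2, a potassium channel of the transient outward current, was at 124 against 1968 and 108 against 1315.

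Nuclear-retained RNAs and cardiac transcription regulators were lower. The nuclear-retained RNAs took 1.35% against 12.1% of non-mt UMIs in control (-3.16, -3.20 to -3.12) and 1.02% against 13.1% in PD-1 inhibitor (-3.68, -3.73 to -3.64), and all but a small part of each sum was Malat1. Neat1, the RNA of paraspeckles, was at 336 CPM against 2029 and 324 against 2520. Airn, an imprinted antisense RNA, differed by -2.02 and -2.03. Among 12 transcription regulators 6 were over 2-fold lower in each library, with summed differences of -1.78 and -1.82. Of all genes compared, 28.5% in control and 31.4% in PD-1 inhibitor were over 2-fold lower. The part of gene length in the count of regulators was not tested. Ppargc1a, a coactivator that drives genes of mitochondria, was at 213 against 1547 and 232 against 1609, and Myocd, a coactivator of muscle genes, was at 162 against 1557 and 84 against 980. Nkx2-5, a homeobox factor of the heart, was the only one over 2-fold higher, at 87.0 against 24.1 and 70 against 17.3.

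Transcripts of the cytosolic protein machinery were higher. Of the ribosomal protein genes, 46 of 49 and 44 of 46 were over 2-fold higher (2.56 and 2.33). These genes have many near-identical copies in the genome, which makes their counts uncertain. Heat shock and chaperone genes were over 2-fold higher in 11 of 12 and 11 of 11 (2.66 and 2.75), with Cryab, a small heat shock protein of the sarcomere, at 2399 CPM against 354 and 2451 against 294. Hsp90ab1, a cytosolic chaperone, was at 1922 against 131 and 1685 against 153. Antioxidant enzymes were over 2-fold higher in 14 of 18 and 12 of 15 (2.01 and 2.13), and the mitochondrial superoxide dismutase Sod2 was at 795 against 133 and 936 against 124. Genes linked to cardiomyocyte stress were higher in sum (1.48 and 1.82), but Nppb, the B-type natriuretic peptide, was at 532 against 746 and 484 against 491. Ankrd1, a stress-responsive ankyrin repeat protein of the sarcomere, was at 2094 against 719 and 2701 against 545.

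Over all genes, the difference moved with the length of the gene on the genome. Genes were put into 5 groups of equal size by their span, the shortest under 12.3 kb and the longest over 98.2 kb in control. In the group of shortest genes 49.2% of control genes were over 2-fold higher in mitochondria-rich barcodes and 14.8% lower, and in that of the longest genes 5.56% were higher and 46.6% lower. In PD-1 inhibitor these were 50.7% and 13.8%, and 4.31% and 51.2%. The median log2 difference went from 0.94 to -0.90 in control and from 1.04 to -1.03 in PD-1 inhibitor. Across the genes compared, Spearman's rho between span and difference was -0.40 and -0.42, a description over genes of the same libraries that are not independent.

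**Figure D3:**
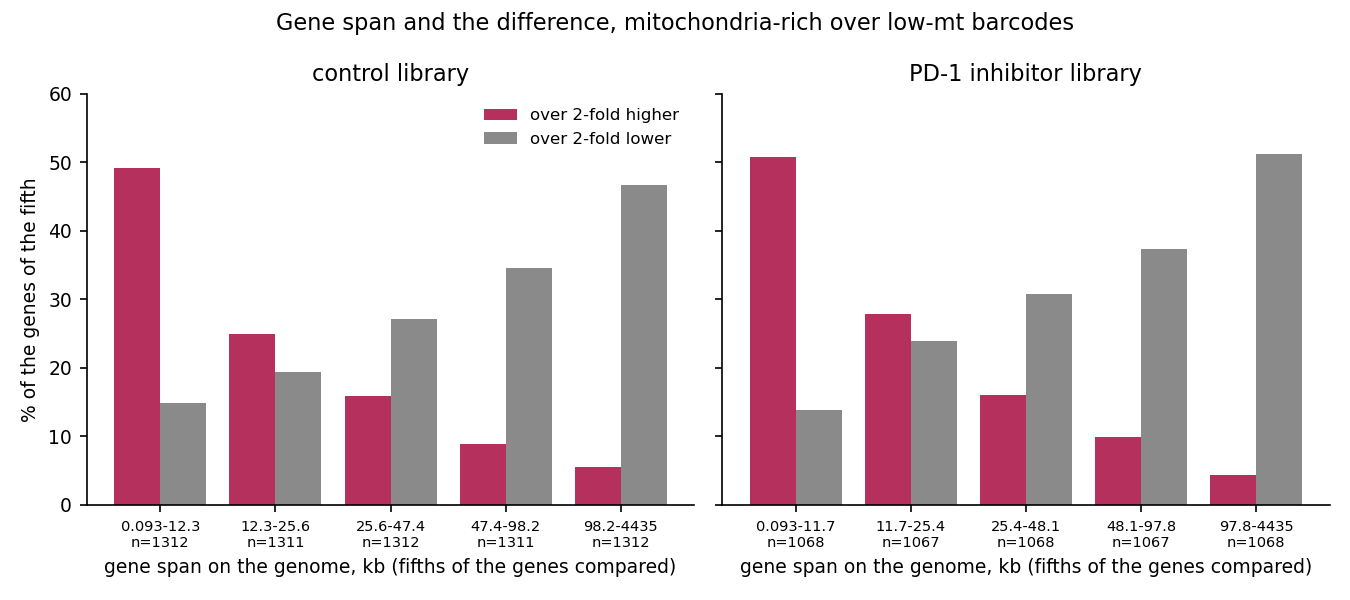
Percentage of genes over 2-fold higher and over 2-fold lower in mitochondria-rich than in low-mt cardiomyocyte barcodes, in 5 groups of genes of equal size from the shortest to the longest span, for control and PD-1 inhibitor. Bars for higher genes decline from 49.2% to 5.56% in control and bars for lower genes climb from 14.8% to 46.6%.

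The 10 genes with the largest differences in both libraries included 3 that are known from other cell types. Fcrla, an Fc receptor-like gene of B cells, was at 363 CPM against 13.3 in control and 448 against 24.4 in PD-1 inhibitor. Car1, carbonic anhydrase 1 of red cells, was at 244 against 8.86 and 230 against 15.3. Cfap46, a gene of motile cilia, was at 545 against 34.8 and 640 against 45.8. In the GENCODE vM21 annotation of GRCm38 each contains, in an intron and on its own strand, a processed copy of the mRNA of a respiratory chain gene that is not among the genes counted. Fcrla contains Gm2962 (chr1:170925309-170925644, minus strand), which is 98.2% identical to Uqcrb (330 of 336 bases). Car1 contains Gm16399 (chr3:14802356-14802574, minus strand), 95.3% identical to Cox6c (204 of 214). Cfap46 contains Gm4459 (chr7:139659688-139660155, minus strand), 99.8% identical to Ndufab1 (467 of 468). The genes copied were themselves higher, Uqcrb by 3.46 and 3.5, Cox6c by 3.10 and 2.61 and Ndufab1 by 2.40 and 2.29 on the log2 scale. How far reads of these mRNAs were counted to Fcrla, Car1 or Cfap46 was not tested, and their counts are uncertain.

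A stretch of 90 bases of each copy is shown with the same stretch of the coding sequence, to let the closeness be seen. Both are written 5′ to 3′ on the strand of the gene, from GENCODE vM21 transcripts, and capitals mark the bases that differ (1, 3 and 1 in the pairs). The copies lie at chr1:170925528-170925617, chr3:14802485-14802574 and chr7:139660019-139660108 of GRCm38, all on the minus strand. The coding stretches are bases 28 to 117 of Uqcrb (gene at chr13:66900617-66905378, minus strand), 10 to 99 of Cox6c (chr15:35925886-35938246, minus strand) and 48 to 137 of Ndufab1 (chr7:122085403-122101886, minus strand), counted from the first base of the coding part.
Gm2962: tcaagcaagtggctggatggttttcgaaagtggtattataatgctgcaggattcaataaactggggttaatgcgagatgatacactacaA
Uqcrb: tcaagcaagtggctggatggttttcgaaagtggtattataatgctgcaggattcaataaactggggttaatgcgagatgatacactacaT
Gm16399: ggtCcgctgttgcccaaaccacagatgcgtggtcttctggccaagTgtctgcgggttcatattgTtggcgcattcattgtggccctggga
Cox6c: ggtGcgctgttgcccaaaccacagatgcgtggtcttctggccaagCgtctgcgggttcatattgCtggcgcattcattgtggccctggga
Gm4459: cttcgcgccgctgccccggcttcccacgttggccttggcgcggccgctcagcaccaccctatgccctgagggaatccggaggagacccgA
Ndufab1: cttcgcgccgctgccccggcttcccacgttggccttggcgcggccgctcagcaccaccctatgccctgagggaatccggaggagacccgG

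Of the other genes in this group, Gm11273 (812 CPM against 49.4 and 952 against 69.2) is 99.2% identical to Cox5b and Gm10053 (510 against 29.1 and 522 against 45.8) is 99.9% identical to Cycs, the gene of cytochrome c, so their counts are uncertain too. Pebp1, a phosphatidylethanolamine-binding protein that inhibits Raf kinase, was at 307 against 21.5 and 330 against 19.3. The rest were the respiratory chain genes Ndufs6, Ndufa1, Ndufb9 and Uqcrb.

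Among the 10 genes with the lowest ratios, Erbb4, the neuregulin receptor of cardiomyocytes, whose gene spans 1076 kb, was at 74.6 CPM against 866 in control and 50 against 639 in PD-1 inhibitor. Myh7b, a myosin heavy chain, was at 55.9 against 683 and 40 against 697, and Adamts6, a secreted protease, at 10.4 against 167 and 8 against 109. The list also held Kcnd2, Ybx2 (4.14 against 137 and 12 against 148) and 4 predicted genes, of which Gm29427 shares its sequence with Pfkfb2 and is uncertain.

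RNA of other cell types was present at low levels, and part of it was higher than in low-mt cardiomyocyte barcodes. Endothelial markers took 0.103% and 0.102% of non-mt UMIs, against 0.0279% and 0.0321% in low-mt cardiomyocyte barcodes and 0.310% and 0.323% in low-mt barcodes of other cells. Fibroblast markers took 0.141% and 0.153%, against 0.0526% and 0.0801% and against 0.684% and 0.949%. Macrophage markers were at 0.0292% and 0.0302%, against 0.0182% and 0.0188% and against 0.206% and 0.209%. Of the mural markers Rgs5, a G protein regulator of pericytes, stood out at 423 CPM against 39.9 and 476 against 35.6, while Abcc9, a channel subunit that cardiomyocytes also express, was at 288 against 439 and 248 against 492. Rgs5 was found in 23.8% and 26.7% of mitochondria-rich barcodes, against 10.2% and 9.38% of low-mt barcodes of other cells. Hemoglobin and other erythroid genes took 0.114% and 0.0798%, against 0.0186% and 0.0172% in low-mt cardiomyocyte barcodes, and 1 barcode of PD-1 inhibitor held 118 of that library's 399 UMIs. Skeletal muscle markers were nearly absent, with 6 and 3 UMIs, and Myh1, Myh2, Myh4, Mylpf and Atp2a1 were at 0 in both libraries. At least 1% of UMIs from markers of other cell types were held by 33 (9.04%) and 25 (7.60%) mitochondria-rich barcodes, and without them the respiratory chain difference was 2.84 and 2.61 on the log2 scale. The part of these other cell types in the differences above was not tested.

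Across cardiomyocyte barcodes the groups changed level along the mt- share, also below the limit of 5%. From under 1% to 15% to 20% mt- UMIs, respiratory chain genes went from 1.32% to 12.4% of non-mt UMIs in control and from 1.62% to 12.1% in PD-1 inhibitor, with 4.94% and 6.03% at 2% to 5%. Thin filament genes went from 1.25% to 6.18% and from 1.39% to 6.36%. Over the same bins Malat1 went from 11.9% to 0.591% and from 13% to 0.457%. Calcium handling genes stayed between 2.15% and 2.74% in control and between 2.22% and 2.47% in PD-1 inhibitor. The bins at 15% to 20% held 42 and 20 barcodes, the fewest of all.

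**Figure D4:**
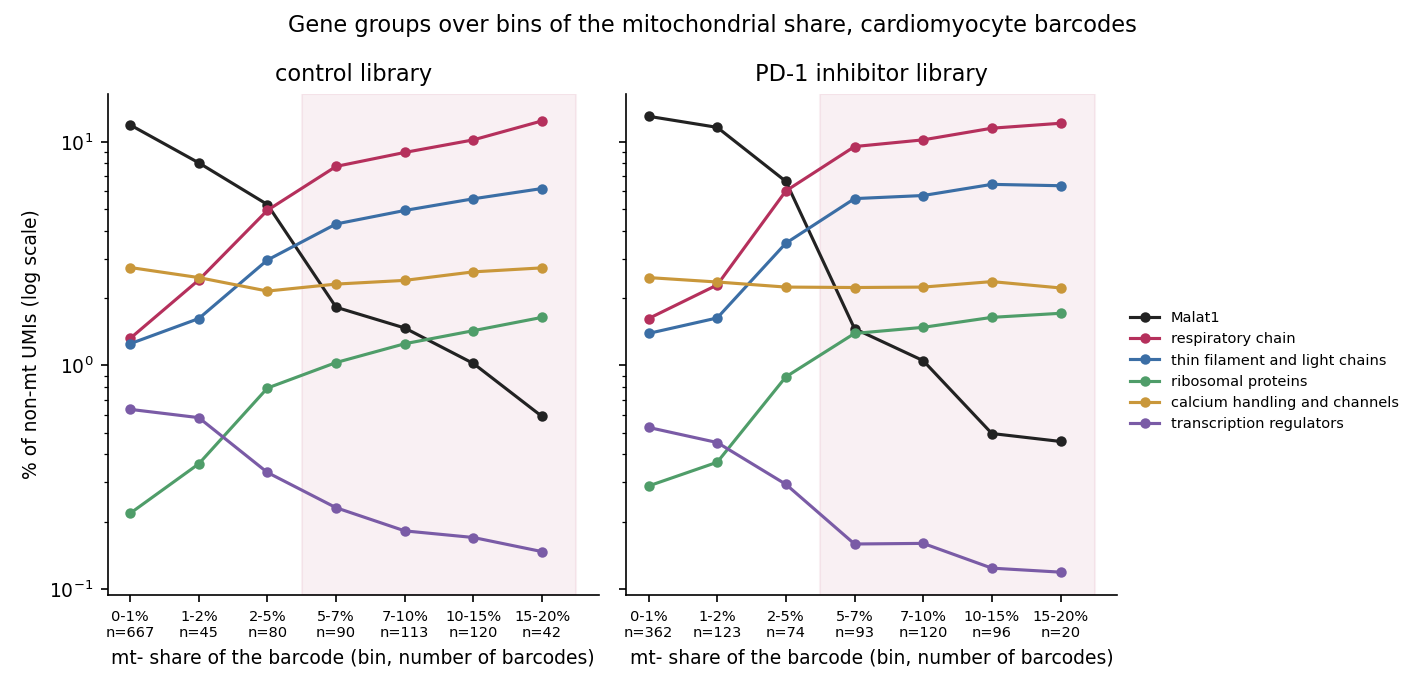
Summed level of 6 gene groups in percent of non-mt UMIs (log axis) over 7 bins of the mt- share of cardiomyocyte barcodes, for control and PD-1 inhibitor, with the bins of the mitochondria-rich barcodes (5% to 20%) shaded. Respiratory chain genes go from 1.32% to 12.4% in control while Malat1 goes from 11.9% to 0.591%, and calcium handling genes stay level.

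Among the mitochondria-rich barcodes themselves the mt- share spans only the range that the limits allow. Over 365 control and 329 PD-1 inhibitor barcodes, Spearman's rho between the mt- share and the respiratory chain share was 0.54 and 0.31, with the 5 markers 0.37 and 0.21, and with Malat1 -0.21 and -0.17. The share of the 6 cardiomyocyte genes had nearly no relation to the mt- share (-0.07 and -0.03), and depth had a small one (0.17 and 0.10). These barcodes share a library and have few UMIs each, so the coefficients are given as a description. Ankrd1 was found in 219 control (60%) and 251 PD-1 inhibitor barcodes (76.3%), and the 37 and 33 barcodes with the most held 53.2% and 49.0% of its UMIs. Of low-mt cardiomyocyte barcodes, 36.9% in control and 30.3% in PD-1 inhibitor held an Ankrd1 UMI. The log2 difference of Ankrd1, PD-1 inhibitor over control, was 0.37 (0.25 to 0.49) in mitochondria-rich and -0.40 (-0.55 to -0.25) in low-mt barcodes.

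Between the libraries, few genes of the mitochondria-rich barcodes differed by more than 2-fold. Of 3481 genes with at least 50 UMIs, 18 (0.517%) were over 2-fold higher in PD-1 inhibitor and 58 (1.67%) over 2-fold lower. With 1 library in each group there was no test. The median mt- share also differed between the libraries, in mitochondria-rich (9.36% and 8.52%) and in low-mt barcodes (0.337% and 0.654%). Its part in the values below was not tested, and values within bins of that share are given as a description.

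Respiratory chain genes were slightly higher in PD-1 inhibitor, by 0.14 (0.12 to 0.16) on the log2 scale, with 66 of 80 genes above 0 and none past 2-fold. In low-mt cardiomyocyte barcodes the same sum was higher by 0.35 (0.32 to 0.38), so the difference between libraries was 0.21 smaller in the mitochondria-rich ones. Within bins of the mt- share this sum was not higher in PD-1 inhibitor throughout. It was 2.41% in control and 2.29% in PD-1 inhibitor from 1% to 2%, and 12.4% and 12.1% from 15% to 20%. In all other bins it was higher in PD-1 inhibitor, such as 1.32% and 1.62% under 1% and 7.76% and 9.52% from 5% to 7%. Thin filament genes differed by 0.20 (0.18 to 0.23) and 0.18, close in both sets. Calcium handling genes differed by -0.13 (-0.17 to -0.09) and -0.16. Antioxidant enzymes differed by 0.26 (0.17 to 0.35), and by 0.13 (0.02 to 0.25) in low-mt barcodes. Prdx1, a peroxiredoxin, was at 319 CPM in control and 512 in PD-1 inhibitor (log2 0.68), against 0.62 in low-mt barcodes. Heat shock genes had a difference of 0.00 (-0.06 to 0.06), against -0.09 in low-mt barcodes. Interferon response and antigen presentation genes differed by -0.10 (-0.22 to 0.02), and by 0.13 (0.02 to 0.25) in low-mt barcodes. Cd274, the gene of PD-L1, had 10 UMIs in control and 2 in PD-1 inhibitor, and Pdcd1, the gene of PD-1, had 0 in both.

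Nuclear-retained RNAs had a log2 difference of PD-1 inhibitor over control of -0.41 (-0.46 to -0.36) in mitochondria-rich barcodes and of 0.12 (0.11 to 0.13) in low-mt ones. Within bins of the mt- share Malat1 was lower in PD-1 inhibitor in each of the 4 bins from 5% to 20% (1.82% and 1.46%, 1.47% and 1.05%, 1.02% and 0.496%, and 0.591% and 0.457% in control and PD-1 inhibitor). It was higher in PD-1 inhibitor in every bin under 5%, with 5.24% and 6.65% from 2% to 5%, so the sign changed at the limit used for the selection. Transcription regulators differed by -0.34 (-0.48 to -0.19), and by -0.30 in low-mt barcodes. Immediate early genes, which cells switch on within minutes of a stimulus, differed by -0.49 (-0.70 to -0.29), and by -0.46 in low-mt barcodes. Fos, a member of that list, had 23 UMIs in control and 1 in PD-1 inhibitor. Erythroid genes differed by -0.51 (-0.70 to -0.32), and by -0.11 (-0.40 to 0.16) in low-mt barcodes. Without the mitochondria-rich barcode of each library with the highest erythroid share, the difference was -0.98 (-1.19 to -0.77).

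Of single genes, Myom2, an M-band protein, was on the higher side, at 584 CPM in control and 1205 in PD-1 inhibitor (log2 1.04, 0.84 to 1.25), against 0.63 in low-mt barcodes. Tmed2, a cargo receptor of the secretory pathway, was at 93.2 and 188, and Dek, a chromatin protein, at 95.3 and 186. On the lower side Cacnb2, the beta subunit of the L-type calcium channel, was at 211 and 86 (-1.29, -1.85 to -0.77), against -0.29 in low-mt barcodes. Foxn3, a forkhead repressor, was at 222 and 92, and Magi2, a scaffold protein, at 271 and 116. Irf2bp2, a transcriptional corepressor, was at 174 and 82. Genes of short span were higher in PD-1 inhibitor than those of long span in both sets: from the shortest to the longest of 5 span groups the median log2 difference went from 0.11 to -0.21 in mitochondria-rich and from 0.33 to -0.18 in low-mt barcodes.

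**Figure D5:**
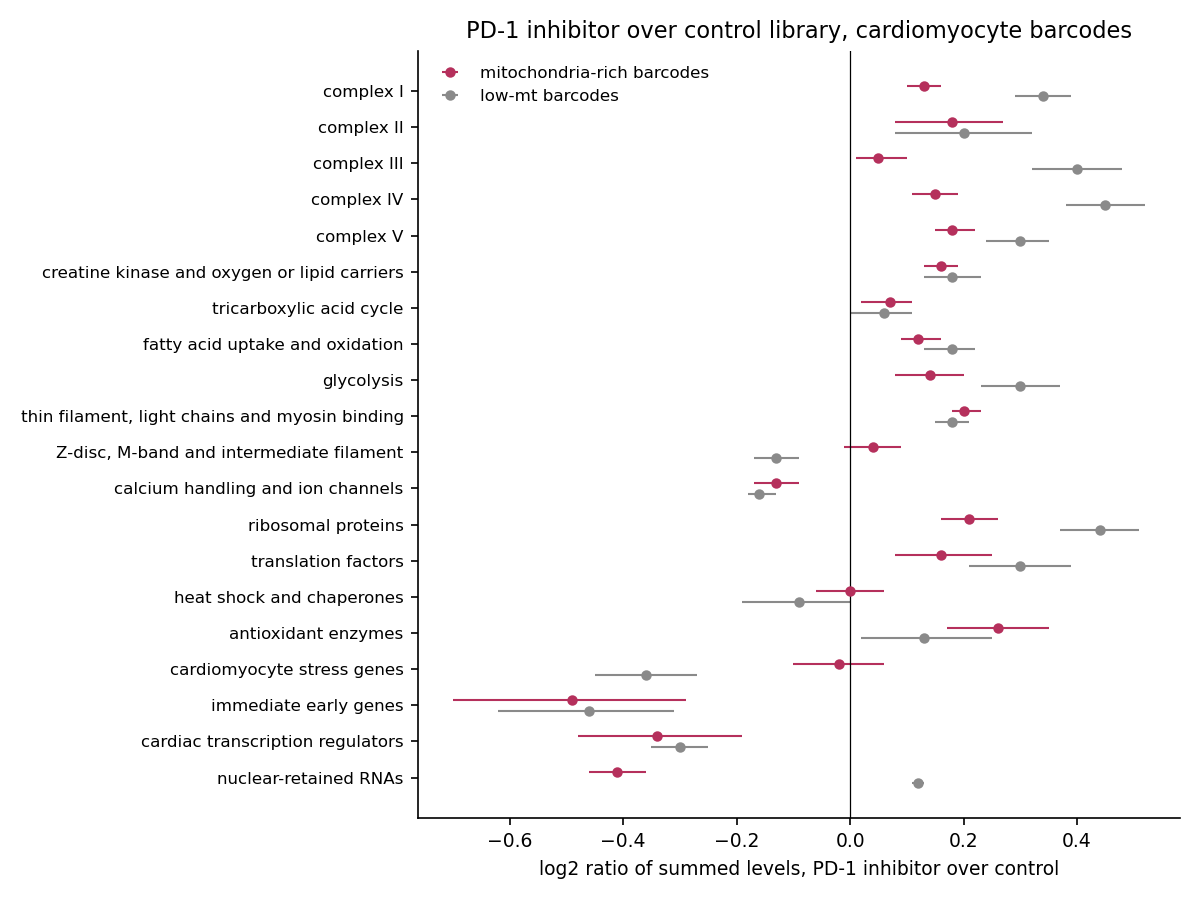
Log2 difference of PD-1 inhibitor over control for the summed level of 20 gene lists, in mitochondria-rich and in low-mt cardiomyocyte barcodes; bars are 95% exact intervals of counting error and the line at 0 marks equal levels. Nuclear-retained RNAs stand at -0.41 in the mitochondria-rich and at 0.12 in the low-mt barcodes. Complexes I to V of the respiratory chain stand at 0.13, 0.18, 0.05, 0.15 and 0.18 in the mitochondria-rich barcodes. In the low-mt barcodes they stand at 0.34, 0.20, 0.40, 0.45 and 0.30.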

How the data were processed

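Per the labels, nuclei were isolated from hearts with the GEXSCOPE separation solution, libraries were made with the GEXSCOPE single nucleus kit and read on an Illumina instrument. The authors deposited filtered matrices of whole UMI counts per gene and barcode, not normalized, for 32589 genes. The submitters' processing notes name the build GRCm38 (mm10). The aligner, the gene annotation, the barcode filter and whether intronic reads were counted were not given in the sources used here.

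All barcodes were kept. Barcode sets were formed by the stated limits in Python 3.11.15 (numpy 2.4.6, scipy 1.17.1, pandas 2.3.3, scanpy 1.11.5 for Scrublet, matplotlib 3.10.9), and doublets were called in each library but not removed. UMIs were summed over a set, divided by its sum over genes that are not mt-, and compared as log2 ratios with 0.5 UMI added to each sum and 95% exact conditional binomial intervals. Genes with at least 50 UMIs in both sums together were called where they differed by over 2-fold, without mt- genes and the 10 genes of the limits. No p-value was computed, since each group is 1 library and barcodes are not replicates. The code was tested on simulated data. Copies of genes were matched to coding transcripts of GENCODE vM21 with blastn 2.17.0. Symbols given to more than 1 ID (48) were left out of the gene lists.

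Genes were named by rule: the 5 markers, the 10 largest and 10 smallest ratios of mitochondria-rich over low-mt barcodes by the value nearest 0 of both libraries (at least 100 UMIs in each), the 6 largest and 6 smallest ratios between libraries, and the 3 genes with the most UMIs in each list. 1 gene that this rule picks is not reported here. All other genes named, among them the exceptions of a list (Ndufs4, Atp5g2, Slc27a1, Mybpc3, Nkx2-5), the lower channel genes other than Kcnd2 and Cacnb2, Fos and Cd274, were chosen after their values were seen. The sets and the gene lists were chosen with earlier results of these data known. Alternatives changed the limits, the doublets, the depth mix, the denominator, the UMI minimum and the scaling.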

Additional observations from a re-analysis of the deposited data

Results flagged for a closer look

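The nuclear-retained RNAs, nearly all Malat1, differed between the libraries in opposite directions in the compared sets of barcodes. The log2 difference of PD-1 inhibitor over control was -0.41 in mitochondria-rich cardiomyocyte barcodes and 0.12 in low-mt cardiomyocyte barcodes. The difference between these values was -0.52 with a 95% interval of -0.58 to -0.47 that covers counting error only. With 1 library in each group it was not tested. The median mt- share of the mitochondria-rich barcodes was lower in PD-1 inhibitor, and its part in this difference was not tested. Within bins of the mt- share Malat1 was lower in PD-1 inhibitor in each of the 4 bins from 5% to 20%. Malat1 was higher in PD-1 inhibitor in every bin under 5% (11.9% in control and 13% in PD-1 inhibitor under 1%, 8.05% and 11.6% from 1% to 2%, 5.24% and 6.65% from 2% to 5%).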

How the results depend on the processing

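No paired analysis was possible because each group is 1 library, and no result comes from a test. The share of mitochondria-rich barcodes was 1.59% in control and 1.46% in PD-1 inhibitor at 10% to 20% mt- UMIs, 1.90% and 1.82% with at least 5% from the cardiomyocyte genes, and 8.84% and 11.6% among barcodes without 1% of other cell types' markers, which also removes most other barcodes. The respiratory chain difference was 2.99 in control and 2.74 in PD-1 inhibitor at 10% to 20% mt- UMIs, 2.86 and 2.70 against barcodes under 1% mt- UMIs, 2.88 and 2.67 with at least 5% from the cardiomyocyte genes, and 2.66 and 2.47 per all UMIs. Chosen after seeing the data, a denominator without the nuclear-retained RNAs gave 2.65 and 2.42, and ratios centred on their median gave 3.09 and 2.91. Centring also turned the calcium handling sum to 0.14 and 0.20, and no other list sum or named gene whose interval excluded 0 changed sign. Genes over 2-fold higher in mitochondria-rich barcodes numbered 787 and 655 with at least 5% from the cardiomyocyte genes, and 2155 and 1760 at a minimum of 20 UMIs, where more genes were tested. Between the libraries 9 genes were higher and 26 lower in PD-1 inhibitor at 10% to 20% mt- UMIs, 31 lower with at least 5% from the cardiomyocyte genes, 28 higher without carriers of other cell types' markers, and 186 higher and 381 lower at a minimum of 20 UMIs. Of 1504 values of 173 list sums and named genes under these settings, 1173 moved by less than their counting error. The cause of these shifts was not tested beyond the number of genes or barcodes each setting leaves. Leaving out doublets moved none of the values named in this paragraph beyond its counting error. Genes with few UMIs, such as Fos and Cd274, are limited by depth.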
